A study of Mus musculus with 34 samples.

Results

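The 42 genes described here build, drive and check the mitotic spindle. The choice was made by name for these roles, with earlier results of these data known. They were 42 of 21938 protein-coding genes of GENCODE M21 (mm10), and the value of each was the mean H3K4me3 signal within 1000 bp of its 5′ end. CUT&RUN, in which an antibody brings protein A fused to micrococcal nuclease (MNase) to a chromatin protein so that the DNA around it is cut out and sequenced, was applied with an anti-H3K4me3 antibody to nuclei of cells scraped from the villi of the small intestine. The 2 groups were wild-type mice and ApcMin/+ mice, which carry a mutant allele of Apc in all cells, with 2 libraries each, both on the C57BL/6J background, and the comparison asks where the mark differed in tissue that still looks histologically normal. The mice were 5 weeks old by the sample labels and 6 weeks old by the methods, and each library holds all cell types that the scraping released.

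Cyclin B with Cdk1 drives a cell into mitosis, condensin and topoisomerase II fold the chromosomes, and kinetochores built on centromeric nucleosomes tie them to spindle microtubules. The spindle checkpoint holds back the anaphase-promoting complex until every kinetochore is attached, after which separase is freed to open the cohesin rings. In the small intestine cells divide in the crypts and leave the cell cycle as they move onto the villi. H3K4me3 sits on the nucleosomes around starts of genes that are in use or ready for use. Promoters of genes that peak at the G2 and M phases often hold CCAAT boxes, which NF-Y binds, and a cell cycle genes homology region (CHR), which the MuvB complexes and FoxM1 use.

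The signal is coverage per base scaled to 10000000 tags per library, and below 2 values named for a genotype are those of its replicates 1 and 2, in that order. The wild-type libraries held 1430000 and 4790000 tags, the ApcMin/+ libraries 3700000 and 5470000. ApcMin/+ replicate 1 stands apart, being the highest library at 98.6% of the 9930 promoters that reached a mean signal of 2 and were tested. The label of the tissue was checked against marker genes. Promoters of 11 of 12 enterocyte markers reached a mean signal of 2, among them Vil1, whereas none did of 12 markers of T, B and myeloid cells, 9 of mesenchyme, 4 of endothelium and 10 genes silent in the gut. The summed signal of the 12 T, B and myeloid cell promoters was at most 8.66 in wild-type mice and at most 11.4 in ApcMin/+ mice, and that of the 9 mesenchyme promoters at most 4.55 and 7.42. Of 9 crypt stem and progenitor markers, 6 reached a mean of 2, and the sum over the 9 was 20.1 and 16.2 for wild-type mice against 70.9 and 25.0 for ApcMin/+ mice. Sums over the 12 enterocyte markers were also higher, at 71.8 and 42.9 for wild-type mice against 212 and 56.2 for ApcMin/+ mice. So were those over all tested promoters, at 49599 and 32485 against 143474 and 43859. Of the 9, Lgr5, Olfm4 and Ascl2 stayed under 2 in every library, with maxima of 1.54, 0.414 and 1.63. The 6 that reached a mean of 2 were Smoc2, Axin2, Sox9, Ephb2, Cdca7 and Myc. Both ApcMin/+ libraries lay above both wild-type libraries at 3 of these 6 (Smoc2, Ephb2 and Myc), against 38.5% of all tested promoters. How far crypt cells contributed to the values below was not tested, and in scraped tissue fewer cells with the mark and less of the mark per cell cannot be told apart.

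RefSeq promoters (GRCm38.p6, the assembly of mm10), 250 bp before to 50 bp after the start, were matched by symbol and strand within 1000 bp of the GENCODE start for 32 of the 42 genes and for 14269 protein-coding genes in all. Not matched were Aurkb, Ccna2, Cdc25c, Incenp, Kif20a, Smc4, Spc24 and Tpx2, and the entries of Cdca8 and Kif2c lay 2394 and 3867 bp away. These were searched on both strands for the CCAAT box (CCAAT) and the CHR (TTTGAA, with TTTAAA as a further form). A CCAAT box lay in 24 of the 32 mitotic promoters (75.0%), against 38.9% of the 14269, and a CHR in 26 (81.2%), against 22.3%. Both were found in 23 (71.9%), against 9.10% of all and 7.21% of the 7492 matched promoters that were tested. In the last 100 bp before to 50 bp after the start, a CHR was in 24 of 32 (75.0%) and in 9.05% of all. Of the 39 CHR matches, 28 began between 50 bp before and 50 bp after the start, and the 48 CCAAT matches had a median position of -67.5 bp. The contrast was narrower for the other motifs. E2F motifs (TTGGCGC, with TTCCCGC plus TTGCCGC plus TTCGCGC as further forms) were in 7 of 32 (21.9%), against 13.6% of all. They were in 19.1% of the tested promoters, near the share of members. GC boxes (GGGCGG, which can share bases with an E2F motif) were in 25 (78.1%), against 51.8% of all and 69.2% of tested promoters. From 100 bp before to 50 bp after the start, GC boxes were in 16 of 32. That is below the 58.5% of tested promoters there and above the 43.5% of all. The TATA box (TATAAA) was in 0 of 32, against 11.2% of all and 6.09% of tested promoters. The median GC content of the mitotic promoters was 59.0%, against 58.0% in all and 61.7% in the tested promoters. In the shorter stretch it was 61.0%, against 62.0% and 66.0%, so that against the tested promoters the mitotic ones held more A and T. Their observed to expected ratio of CpG was 0.883 against 0.647 in all and 0.804 in the tested promoters. Mad1l1, Mad2l1, Ncaph, Nuf2 and Pttg1 held neither a CCAAT box nor a CHR. A match of these letters describes the sequence and is not a binding site.

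The sequences below are those of the matched genes with the highest H3K4me3 signal that hold both motifs, printed to show how the motifs are arranged, with every CCAAT box and every CHR in capitals, also where it lies on the other strand and so reads as its reverse complement. Stretches are cut so that at most 30 bases lie in annotated exons, which removes Bub3, whose motifs lie there. They run 5′ to 3′ in the direction of the gene and are Kif11 at chr19:37376132-37376431 (plus strand), Ncapd2 at chr6:125191702-125191830 (minus strand), Aurka at chr2:172370536-172370710 (minus strand), Ncapg at chr5:45669679-45669918 (plus strand), Top2a at chr11:99024160-99024439 (minus strand), Plk1 at chr7:122159372-122159438 (plus strand) and Mki67 at chr7:135716332-135716629 (minus strand).
Kif11: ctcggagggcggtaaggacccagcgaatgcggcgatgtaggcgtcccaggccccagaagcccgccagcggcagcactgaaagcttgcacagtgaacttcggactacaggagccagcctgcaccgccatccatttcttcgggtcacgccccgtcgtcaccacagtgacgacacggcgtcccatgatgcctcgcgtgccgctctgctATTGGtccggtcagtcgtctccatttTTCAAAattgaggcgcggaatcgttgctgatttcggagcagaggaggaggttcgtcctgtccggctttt
Ncapd2: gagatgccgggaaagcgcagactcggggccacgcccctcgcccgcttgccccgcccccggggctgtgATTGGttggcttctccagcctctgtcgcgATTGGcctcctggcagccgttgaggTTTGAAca
Aurka: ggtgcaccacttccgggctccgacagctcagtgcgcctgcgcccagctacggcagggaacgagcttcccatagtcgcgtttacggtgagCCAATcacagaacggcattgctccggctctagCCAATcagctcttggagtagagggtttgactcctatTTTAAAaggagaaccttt
Ncapg: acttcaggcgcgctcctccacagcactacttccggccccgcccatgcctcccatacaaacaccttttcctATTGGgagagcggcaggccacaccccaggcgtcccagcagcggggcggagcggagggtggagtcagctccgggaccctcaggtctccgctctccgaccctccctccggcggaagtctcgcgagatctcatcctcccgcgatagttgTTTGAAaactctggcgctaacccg
Top2a: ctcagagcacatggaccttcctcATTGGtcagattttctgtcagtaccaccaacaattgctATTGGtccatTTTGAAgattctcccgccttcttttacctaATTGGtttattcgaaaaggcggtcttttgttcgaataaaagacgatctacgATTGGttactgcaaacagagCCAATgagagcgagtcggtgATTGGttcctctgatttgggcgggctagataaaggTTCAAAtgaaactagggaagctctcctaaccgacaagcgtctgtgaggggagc
Plk1: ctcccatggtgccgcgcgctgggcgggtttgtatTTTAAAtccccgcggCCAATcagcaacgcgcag
Mki67: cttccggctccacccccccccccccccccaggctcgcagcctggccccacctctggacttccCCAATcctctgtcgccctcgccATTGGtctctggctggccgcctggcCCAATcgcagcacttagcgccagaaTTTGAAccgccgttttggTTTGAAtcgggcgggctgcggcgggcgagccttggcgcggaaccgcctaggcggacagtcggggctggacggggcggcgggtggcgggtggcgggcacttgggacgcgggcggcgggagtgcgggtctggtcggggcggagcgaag
In Kif11, which encodes the motor that pushes spindle poles apart, a single CCAAT box precedes a CHR that begins 19 bp before the RefSeq start. Top2a, which encodes the topoisomerase that untangles sister chromatids, holds 6 CCAAT boxes and 2 CHRs. In the stretch of Plk1, the order is reversed, the CHR lying at -29 bp and the CCAAT box at -14 bp.

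H3K4me3 was present at most of these promoters in both genotypes. A mean signal of at least 2 was reached by 39 of the 42 genes (92.9%), against 45.3% of all protein-coding promoters. The median member signal was 3.24 and 2.29 for wild-type mice against 10.2 and 3.70 for ApcMin/+ mice. Among all 21938 promoters, the median member ranked at percentile 69.3, 67.4, 70.3 and 72.7 (wild-type, then ApcMin/+), so that the set held a similar rank in all 4 libraries. Against the median of the tested promoters (4.53, 3.06, 13.2 and 4.18), the median member stood at ratios of 0.714, 0.749, 0.774 and 0.886. A library's background is its mean signal over 5000 bp away from every start. Signal of at least 5 times that background was found at 34 of 42 genes in each wild-type library and at 41 in each ApcMin/+ library. Over all protein-coding promoters the shares were 47.5% and 40.9% for wild-type mice against 53.6% and 48.6% for ApcMin/+ mice. Depth limits the wild-type values: the median member held 9.27 and 22.0 fragments in wild-type mice, against 75.6 and 40.5 in ApcMin/+ mice, and 23 of the 42 held fewer than 10 fragments in wild-type replicate 1.

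**Figure D1:**
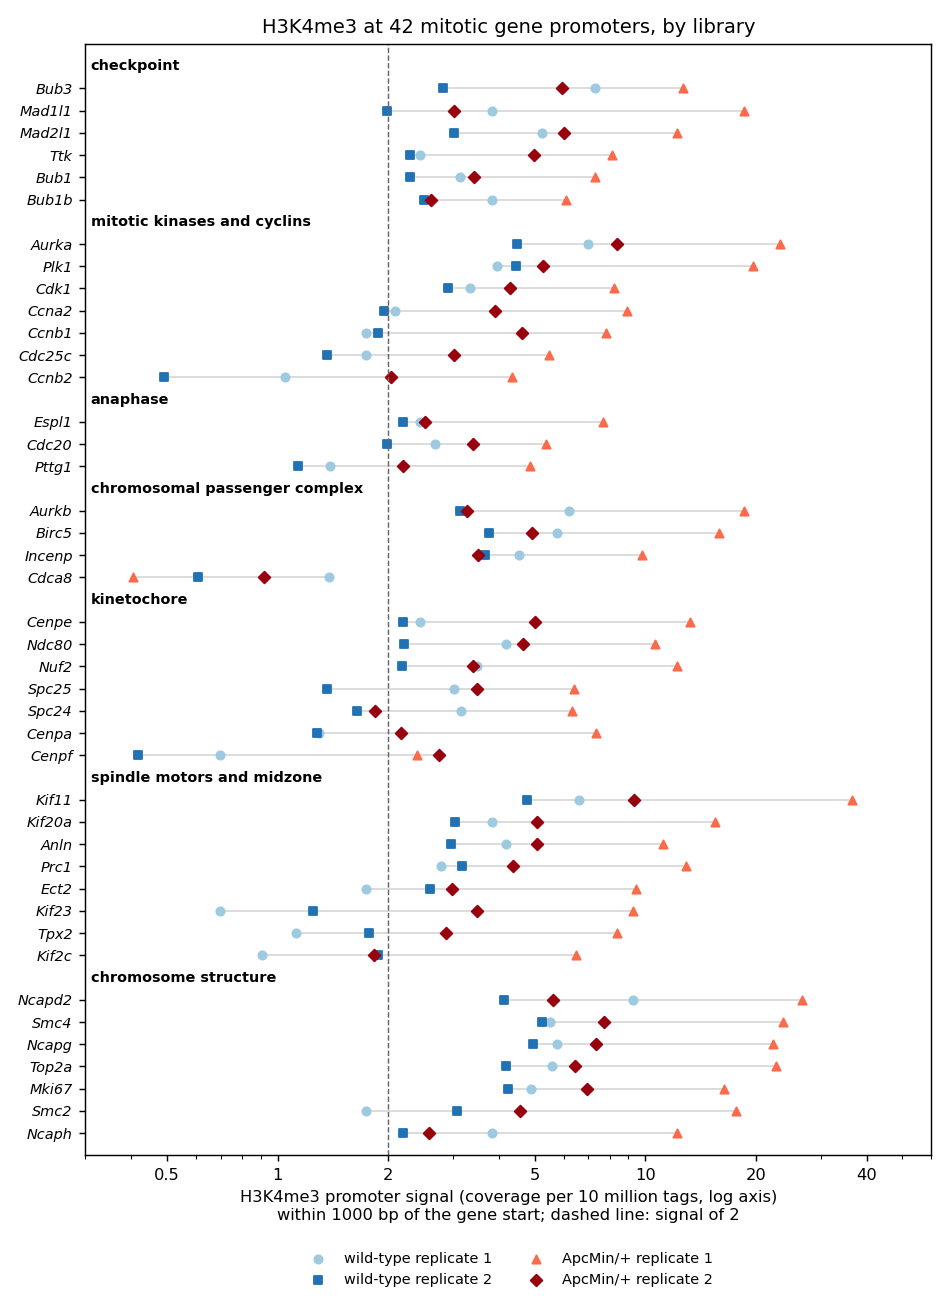
H3K4me3 promoter signal (log axis) of each of the 42 genes in the 4 libraries, ordered by role and by mean signal. ApcMin/+ replicate 1 (triangles) is the highest library at 40 of the 42 genes, and only Cdca8, Cenpf and Ccnb2 have a mean under the dashed line at 2.

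Between the genotypes, the signal was higher in ApcMin/+ mice at all 39 tested members on average, which was also so for 99.2% of all tested promoters, and 11 of the 39 lay below the median promoter once the shift shared by all promoters was removed. The median difference on the log2(signal + 1) scale was 1.01 over the members, with a range from 0.30 in Bub1b to 1.80 in Kif23, and 0.85 over all tested promoters. None of the members passed the threshold, since limma with Benjamini-Hochberg adjustment over all tested promoters gave a lowest adjusted p of 0.683 among them. It called 0 of 9930 promoters (0%), with 132 (1.33%) at an unadjusted p under 0.05, 1 of them a member (Kif23, unadjusted p = 0.0103). An exact permutation test of 2 libraries against 2 cannot give a p below 0.333.

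Both ApcMin/+ libraries lay above both wild-type libraries at 28 of the 39 tested members, against 38.5% of all tested promoters, and both lay below at 0, against 0.161%. This background rests on wild-type replicate 1, the library with the fewest tags. When it was left out, both ApcMin/+ libraries exceeded the remaining one at 38 of 40 members but also at 87.5% of all promoters, and at 16 of 40 against 28.5% when centred. When wild-type replicate 2 was left out, the counts were 30 of 40 against 42.1%, and 21 of 40 against 31.6% when centred. Without the filter on low signal the count was 30 of 42, against 26.0% of all protein-coding promoters. The background depends on the level of the mark. Among promoters with a mean signal of 2 to 5 the groups did not overlap at 14 of 17 members against 50.9%, and at a mean of at least 5 at 14 of 22 members against 32.0%. Of the 39 tested members, 7 (Ccnb1, Cdc25c, Pttg1, Cenpa, Kif2c, Tpx2 and Kif23) had a wild-type mean under 2 and so passed the filter only through the ApcMin/+ libraries, as did 13.3% of all tested promoters.

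The 2 ApcMin/+ libraries contributed unequally. ApcMin/+ replicate 1 was the highest library at 40 of 42 genes, and ApcMin/+ replicate 2 the second highest at 30 of 42, against 38.3% of tested promoters. When ApcMin/+ replicate 1 was left out, ApcMin/+ replicate 2 exceeded both wild-type libraries at 24 of 34 members that then passed the filter, against 36.3% of promoters, and at 22 of 34 against 29.6% when each library was also centred on its median tested promoter. When ApcMin/+ replicate 2 was left out, replicate 1 exceeded both wild-type libraries at 39 of 39 members but also at 98.8% of all promoters, and at 16 of 39 against 32.9% when centred. In that setting limma called 34 of 39 members higher, but also 65.5% of all promoters, in a fit where the library that stands apart is the only one of ApcMin/+ mice and is assumed to vary as the wild-type libraries do.

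Centring each library on its median tested promoter on the log2 scale removes the shift shared by all promoters. The median member difference was then 0.16, with a range from -0.56 in Bub1b to 0.94 in Kif23, and 28 of 39 members lay above the median promoter and 11 below it, against 48.8% of all above. Both ApcMin/+ libraries lay above both wild-type libraries at 11 of 39 members (13.1% of all tested promoters) and below at 3 (14.3%), so that the share of members above was larger than in the background and the share below smaller. The 11 were Aurka, Cenpa, Cenpe, Nuf2, Kif11, Kif20a, Kif23, Smc2, Smc4, Ncapg and Top2a, and the 3 were Bub1b, Incenp and Spc24. Of the 11, Cenpa and Kif23 passed the filter only through the ApcMin/+ libraries. The windows of Aurka, Kif20a and Smc4 also hold the start of a protein-coding neighbour, so their signal cannot be assigned to either gene. With centring limma called 12 promoters (0.121%), none of them a member.

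**Figure D2:**
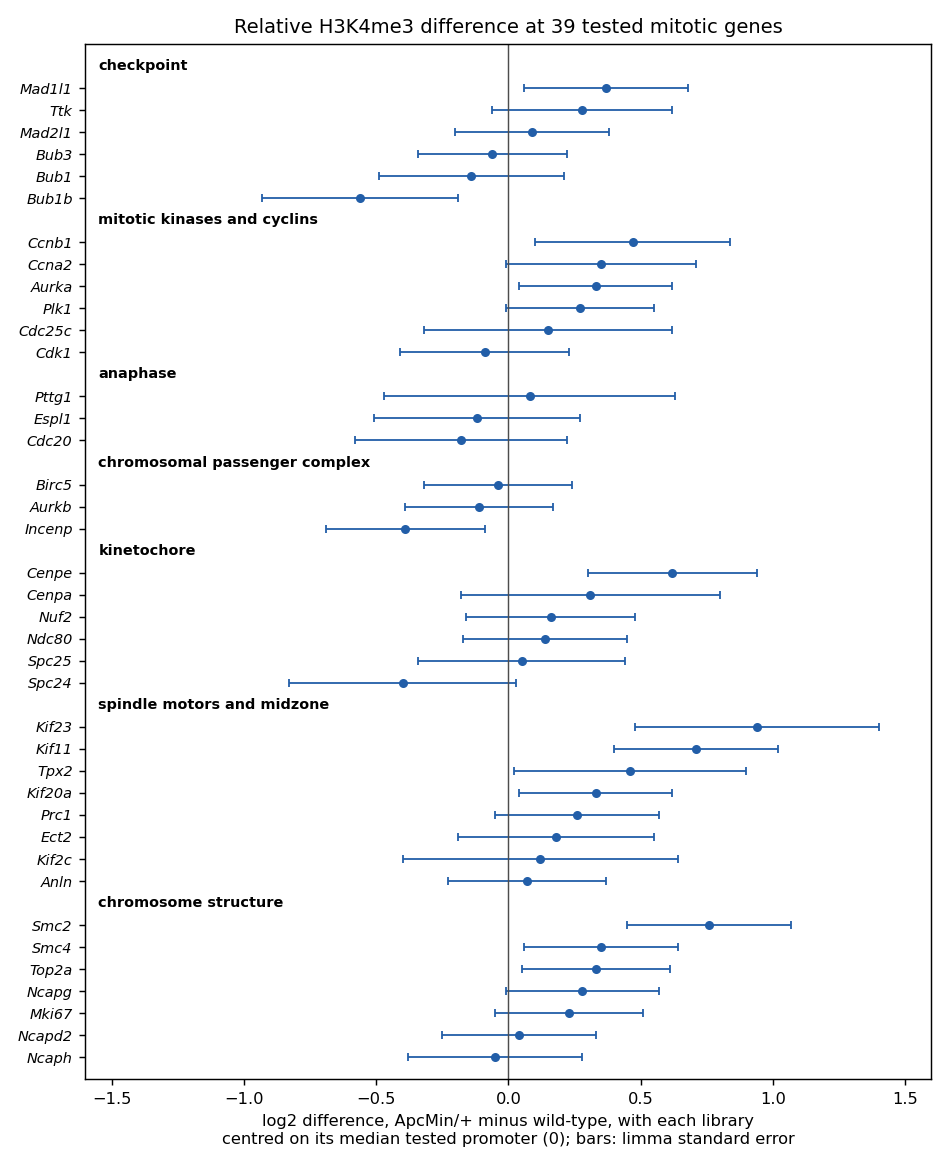
Log2 difference of ApcMin/+ minus wild-type at the 39 tested genes, by role, after each library was centred on its median tested promoter (vertical line), with the limma standard error of 2 against 2 libraries. All 8 spindle motor and midzone genes lie to the right of the line and all 3 tested chromosomal passenger genes to the left, and no member passed the threshold. Of the 8, Kif2c, Tpx2 and Kif23 passed the filter only through the ApcMin/+ libraries.

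Among the spindle motors and midzone genes, the mean signal ran from 2.78 in Kif2c, a microtubule depolymerase, to 14.3 in Kif11. All 8 lay above the median promoter after centring (48.8% of all tested promoters), by a median of 0.30. Both ApcMin/+ libraries exceeded both wild-type libraries at 7 of 8 before centring (38.5% of all) and at 3 of 8 after it (13.1%). Of the 8, Kif2c, Tpx2 and Kif23 passed the filter only through the ApcMin/+ libraries, as did 13.3% of all tested promoters. Kif11 had the highest signal of the 42 genes, at 6.62 and 4.78 for wild-type mice against 36.4 and 9.29 for ApcMin/+ mice. The groups did not overlap, though ApcMin/+ replicate 2 lay much nearer to the wild-type libraries than to its own replicate. The difference was 1.56 (SE 1.26, limma adjusted p = 0.683), and 0.71 (SE 0.31) after centring. Kif23, whose motor bundles the midzone and is needed for cytokinesis, gave 0.697 and 1.25 for wild-type mice against 9.26 and 3.49 for ApcMin/+ mice. Both ApcMin/+ values were well above both wild-type values, which rested on 2 and 11.9 fragments. The difference of 1.80 (SE 0.70, limma adjusted p = 0.683) was the largest of the members, and it was 0.94 (SE 0.46, limma adjusted p = 1.000) after centring. The others were Tpx2, which nucleates spindle microtubules, Kif20a, Prc1 and Anln, which act at the midzone and the cleavage furrow, and Ect2, which activates RhoA there, with centred differences from 0.07 in Anln to 0.46 in Tpx2.

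The chromosome structure genes were the role with the highest median signal in each of the 4 libraries, with means from 5.21 in Ncaph to 11.4 in Ncapd2. Smc2 and Smc4, the ATPase core of condensin, had 1.74 and 3.07, and 5.52 and 5.24, respectively, in wild-type mice. In ApcMin/+ mice they had 17.7 and 4.57 (Smc2) and 23.7 and 7.71 (Smc4). Neither gene's groups overlapped, and the centred differences were 0.76 (SE 0.31) for Smc2 and 0.35 for Smc4. The Smc2 value of wild-type replicate 1 rested on 4.99 fragments. In this role both ApcMin/+ libraries lay above both wild-type libraries at 5 of 7 genes, against 38.5% of all tested promoters and 32.0% of those with a mean of at least 5. After centring this was so at 4 of 7, against 13.1%. Ncapg, a condensin I subunit, had 5.77 and 4.96 for wild-type mice against 22.3 and 7.33 for ApcMin/+ mice, again without overlap. Ncapd2, another subunit, had 9.27 and 4.14 for wild-type mice against 26.6 and 5.60 for ApcMin/+ mice. Here wild-type replicate 1 lay above ApcMin/+ replicate 2, and the groups overlapped, as they did in the third non-SMC subunit, Ncaph. Top2a had 5.56 and 4.19 for wild-type mice against 22.6 and 6.42 for ApcMin/+ mice, and its centred difference was 0.33. Mki67, which encodes the Ki-67 protein that coats mitotic chromosomes and is widely used as a marker of dividing cells, had 4.88 and 4.23 for wild-type mice against 16.4 and 6.96 for ApcMin/+ mice. Its groups did not overlap, its rank among all promoters was at percentile 80.2 and 89.5 in the wild-type libraries, and its difference was 1.08 (SE 1.16, limma adjusted p = 0.683).

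Among the mitotic kinases and cyclins, both ApcMin/+ libraries lay above both wild-type libraries at all 6 tested genes (Cdk1, Ccna2, Ccnb1, Cdc25c, Plk1 and Aurka), against 38.5% of all tested promoters and 50.9% of those with a mean of 2 to 5. After centring this was so only at Aurka, against 13.1% of all, and the median centred difference was 0.30. The window of Aurka also holds the start of Cstf1, 146 bp upstream on the opposite strand. Its mean signal was 16.8 on the upstream side and 4.74 on the downstream side, and it cannot be assigned to either gene. Ccnb1 and Cdc25c passed the filter only through the ApcMin/+ libraries, as did 13.3% of all tested promoters. Aurka, the kinase of the spindle poles, had 6.97 and 4.48 for wild-type mice against 23.2 and 8.36 for ApcMin/+ mice. Plk1, a kinase that acts from entry into mitosis to cytokinesis, had 3.94 and 4.46, then 19.6 and 5.26. In both genes ApcMin/+ replicate 2 lay close above the wild-type values, and ApcMin/+ replicate 1 far above. Ccnb2, a B-type cyclin, was not tested, with 1.05 and 0.491 for wild-type mice against 4.33 and 2.03 for ApcMin/+ mice, a mean of 1.97 that lies just under the filter. It was covered by 2.99 and 4.70 fragments in the wild-type libraries, too few for a fold to be given. The cyclins Ccna2 and Ccnb1 had centred differences of 0.35 and 0.47, and Cdk1, the kinase they activate, -0.09.

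The chromosomal passenger complex corrects wrong attachments of kinetochores. Groups overlapped at all 3 of its tested genes, too few to be set against the 38.5% of all tested promoters without overlap. Its kinase Aurkb had 6.20 and 3.13 for wild-type mice against 18.5 and 3.28 for ApcMin/+ mice, and survivin (Birc5) gave the same order, with wild-type replicate 1 second. Incenp, the scaffold of the complex, had 4.53 and 3.66 for wild-type mice against 9.82 and 3.51 for ApcMin/+ mice. ApcMin/+ replicate 2 was thus the lowest library, and the centred difference was -0.39 (SE 0.30). The fourth subunit, Cdca8 (borealin), had a signal of only 1.38 and 0.607 for wild-type mice against 0.405 and 0.918 for ApcMin/+ mice at its 5′ end (chromosome 4, position 124939311, minus strand), the lowest mean of the 42 genes. The mark lay elsewhere along the gene. The signal of Cdca8 was highest 2320 bp downstream, and at another annotated transcript start 2438 bp downstream it was 10.9 and 5.35 for wild-type mice against 25.7 and 8.92 for ApcMin/+ mice. The nearest RefSeq promoter of Cdca8 is 2394 bp from the GENCODE 5′ end. At that start too, wild-type replicate 1 exceeded ApcMin/+ replicate 2.

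**Figure D3:**
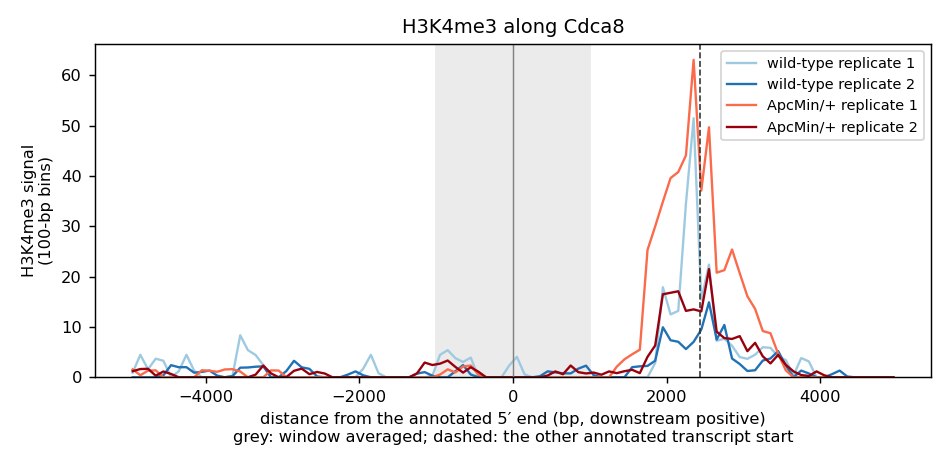
H3K4me3 signal in bins of 100 bp along Cdca8 in the 4 libraries, against the distance from the annotated 5′ end, with the averaged window in grey and the transcript start 2438 bp downstream dashed. The signal lies around the downstream start in all 4 libraries and outside the window.

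The kinetochore genes had means from 1.57 in Cenpf to 5.70 in Cenpe. Both ApcMin/+ libraries lay above both wild-type libraries at 4 of the 6 tested, against 38.5% of all tested promoters. After centring they lay above at 3 of 6 (13.1% of all) and below at 1 (14.3%). Cenpa passed the filter only through the ApcMin/+ libraries. Cenpe, the motor that brings chromosomes to the spindle equator, had 2.44 and 2.19 for wild-type mice against 13.2 and 5.01 for ApcMin/+ mice. Every ApcMin/+ value was above every wild-type value, and the difference was 1.48 (SE 0.93, limma adjusted p = 0.683), or 0.62 (SE 0.32) after centring. Cenpf, a large coiled-coil protein of the outer kinetochore, was not tested, at 0.697 and 0.418 for wild-type mice against 2.40 and 2.75 for ApcMin/+ mice. It was the only gene of the 42 at which ApcMin/+ replicate 2 was the highest library. The 4 subunits of the Ndc80 complex, which grips the microtubule, were spread around the median promoter, from -0.40 in Spc24 through 0.05 in Spc25 and 0.14 in Ndc80 to 0.16 in Nuf2. Spc24 had 3.15 and 1.64 for wild-type mice against 6.30 and 1.84 for ApcMin/+ mice, so that the groups overlapped. Cenpa, the histone variant of centromeres, had a centred difference of 0.31 (SE 0.49).

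The checkpoint genes (Bub1, Bub1b, Bub3, Mad2l1, Mad1l1 and Ttk), whose products delay anaphase, had means from 3.76 in Bub1b to 7.20 in Bub3 and a median centred difference of 0.01. Groups did not overlap at 3 of the 6, near the 38.5% of all tested promoters, and after centring ApcMin/+ mice were above at 0 of the 6 and below at Bub1b. Bub1b, which encodes BubR1, a part of the complex that inhibits the anaphase-promoting complex, had the smallest difference of the members. It had 3.83 and 2.50 for wild-type mice against 6.09 and 2.61 for ApcMin/+ mice, with ApcMin/+ replicate 2 between the wild-type values, and a difference of 0.30 (SE 0.82, limma adjusted p = 0.748). The 3 anaphase genes were low, from 2.40 in Pttg1 (securin) to 3.70 in Espl1 (separase). Cdc20, the activator of the anaphase-promoting complex, had 2.68 and 1.98 for wild-type mice against 5.36 and 3.40 for ApcMin/+ mice. The groups of all 3 did not overlap before centring (38.5% of all tested promoters) but did at all 3 after it. Their centred differences were between -0.18 (Cdc20) and 0.08 (Pttg1), about that of the median promoter. Pttg1 passed the filter only through the ApcMin/+ libraries.

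The mark was spread around the starts in the same places in both genotypes. Averaged over the 42 genes, the signal was highest 120 to 159 bp downstream of the start in each library, at 8.68 and 6.49 for wild-type mice against 23.4 and 9.24 for ApcMin/+ mice. A second maximum lay 180 to 280 bp upstream, separated by a minimum at the start. Over all tested promoters wild-type replicate 1 (10.7) was higher than ApcMin/+ replicate 2 (8.72), whereas over the mitotic genes it was lower. The members had more of their signal upstream. The maximum lay upstream of the start at 17 of 42 (40.5%), against 28.3% of tested promoters, and the share of signal on the downstream side had a median of 58.4% against 68.2%.

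**Figure D4:**
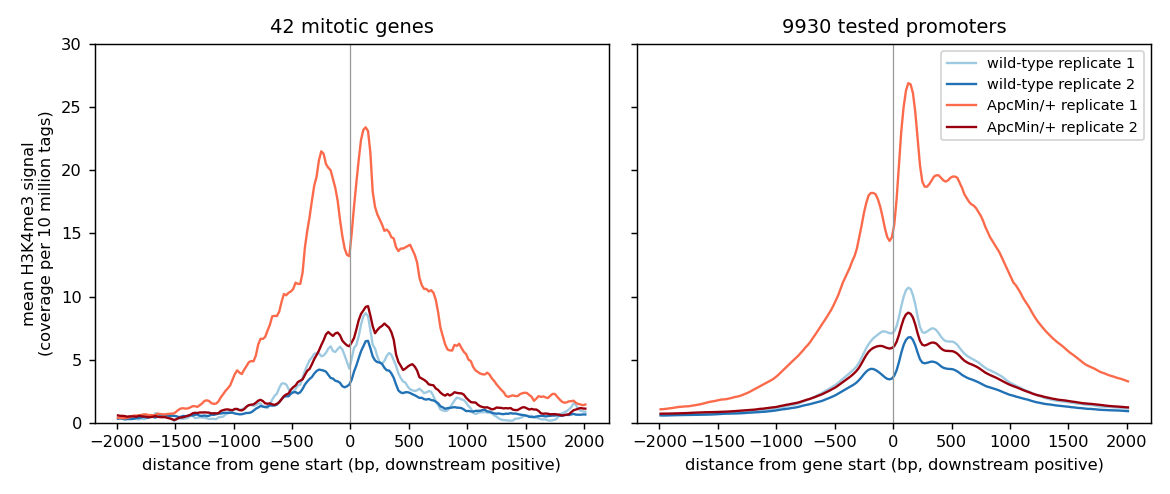
Mean H3K4me3 signal in bins of 20 bp around the gene start for the 42 genes (left) and all 9930 tested promoters (right) in the 4 libraries. Maxima on both sides of the start are seen in every library, and ApcMin/+ replicate 1 is far above the other 3 in both panels.

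Another gene started on the opposite strand within 1000 bp at 13 of the 42 genes (31.0%, against 32.7% of tested promoters). At these 13 the downstream share had a median of 35.7%, and at the other 29 it was 63.3%, compared with 55.3% and 73.2% for tested promoters of the same kinds. The neighbour was protein-coding at 5 (11.9%, against 21.5%): Mad1l1 with Nudt1, Aurka with Cstf1, Kif20a with Brd8, Smc4 with Ift80 and Ncapd2 with Mrpl51. The 1000 bp window of these genes also holds the start of the neighbour, 12 bp away in Kif20a and 168 bp away in Smc4, so their signal cannot be assigned to either gene. Every member had an enriched region, defined at 5 times the genome-wide mean, within 1000 bp of its start, as did 100% of tested promoters. That limit, a signal of 1.83, lies below the filter of 2, so a tested promoter could hardly lack a region. Lengths at the members ran from 500 to 3500 bp, with a median of 1600 bp against 2000 bp for tested promoters. The region of 500 bp was that of Cdca8 (chr4:124939801-124940300), where the window had a mean signal of only 0.828. It lies upstream of the annotated 5′ end and is not the downstream mark described above. The longest were those of Incenp (3500 bp), Smc4 (3400 bp) and Plk1 (3000 bp).

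A further 112 genes of mitosis outside the set were read in the same way. Of these, 99 reached the filter, limma called 0, and both ApcMin/+ libraries exceeded both wild-type libraries at 47 of 99, against 38.5% of all tested promoters. Their median difference was 0.89, and 0.03 after centring. By group, the groups of libraries did not overlap at 14 of 23 spindle assembly genes, 10 of 19 inner kinetochore genes, 7 of 13 cohesin and shugoshin genes, 8 of 16 genes of the anaphase-promoting complex, 2 of 7 checkpoint partners and 0 of 3 condensin II genes. Among regulators of cell-cycle genes (MuvB, E2F, FoxM1 and NF-Y subunits) it was 6 of 18. The highest of the 112 was Nfya, a subunit of NF-Y, with a mean of 17.4 and values of 13.0 and 7.93 for wild-type mice against 39.8 and 9.05 for ApcMin/+ mice. The lowest was Cenpt at 0.347.

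**Figure D5:**
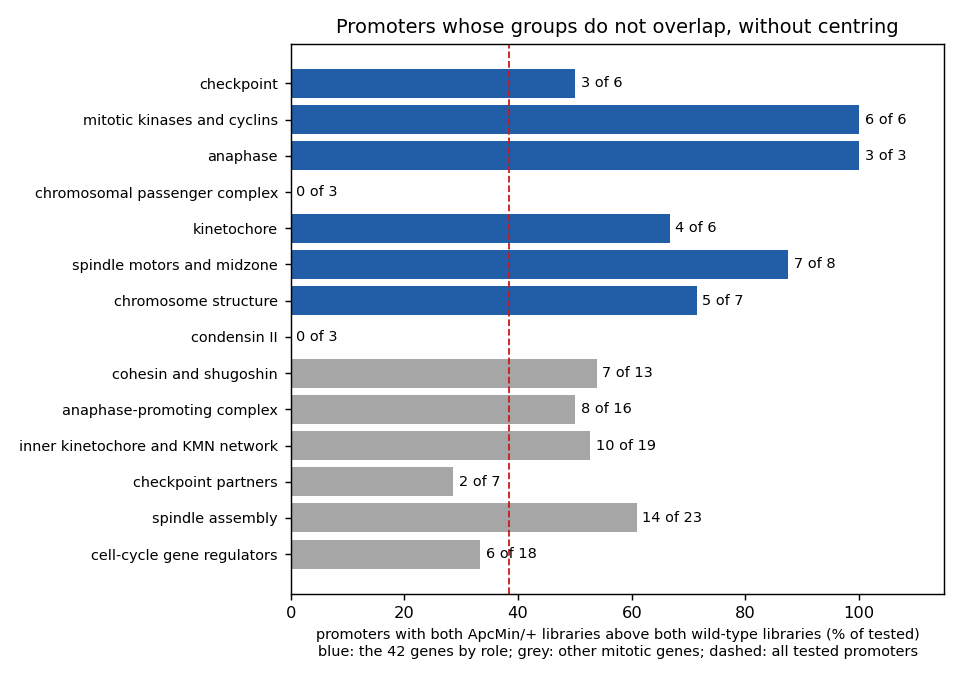
Percent of tested promoters at which both ApcMin/+ libraries lay above both wild-type libraries, without centring, for the 42 genes by role (blue) and other mitotic genes (grey), with counts beside the bars. The dashed line marks the 38.5% of all tested promoters, and the roles hold between 3 and 8 tested genes each.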

How the data were processed

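H3K4me3 CUT&RUN libraries of 2 wild-type and 2 ApcMin/+ mice were used, grouped by the genotype in the labels, and the libraries of other marks, RNA-seq and older mice were not analysed here. The authors trimmed read pairs with Novocraft, aligned them to mm10 with Bowtie2, dropped duplicates (Picard) and alignments of MAPQ below 10 (samtools), and kept fragments between 150 and 500 bp long. The deposited tracks give signal, HOMER's per-base coverage, which the authors scaled to a total of 10000000 tags without correcting for a no-antibody control. Fragments at a promoter were the summed signal divided by the track's sum per tag, and intervals were not computed, since the values are not counts.

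The signal was averaged over 1000 bp on each side of the GENCODE M21 5′ ends. Promoters with a mean of at least 2 were fitted with limma 3.58.1 (R 4.3.3, trend) on log2(signal + 1), and p-values were adjusted over all of them (Benjamini-Hochberg, 0.05). A log2 difference on this scale understates changes of low promoters. Enriched regions (100-bp bins of the averaged tracks, gaps of up to 500 bp bridged, minimum length 300 bp) served for lengths. A library's background was its mean signal over 5000 bp away from every annotated transcript start, and enriched regions lying there were not removed. Summaries and plots were made in Python 3.11.15 with pandas 2.3.3, numpy 2.4.6 and matplotlib 3.10.9.

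The members, the roles and the lists of other genes were chosen with earlier results of these data known, so no test was made over a list. Values in every library are given for the 8 members with the highest mean, those with a mean under 2, and the 4 with the largest and the 4 with the smallest centred difference. Others that are named illustrate their role and were picked after their values were seen.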

Additional observations from a re-analysis of the deposited data

How the results depend on the processing

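With 2 libraries per genotype, few fragments in wild-type replicate 1 and a shift of ApcMin/+ replicate 1 at nearly all promoters, limma called 0 of 9930 promoters. Centring called 12, quantile normalization 2 and a replicate block 1, none of them members. Across the 9930 tested promoters, centred differences between replicates 1 and 2 of wild-type mice correlated at 0.196 with those of ApcMin/+ mice. That positive value does not settle whether same-numbered libraries were processed together, which was not tested. The authors describe repeating CUT&RUN for each antibody on mice of both genotypes, without stating which libraries shared a batch. The main fit left the replicate number out, and the fit with a replicate block is given as an alternative. Leaving out 1 library called from 0 to 6544 promoters and from 0 to 34 members, the maxima without ApcMin/+ replicate 2. With centring and 1 library left out, the calls were 2 (wild-type replicate 1), 17 (wild-type replicate 2), 0 (ApcMin/+ replicate 1) and 30 (ApcMin/+ replicate 2), with 0 members. The median member difference of 1.01 became 0.16 with centring and 0.22 with quantile normalization, and ranged from 0.40 to 1.71 without 1 library, or 0.10, 0.26, 0.29 and 0.14 in the same order when also centred. Relative to all promoters it was 0.16, against 0.67 without the filter on low signal, 0.05 and 0.29 with pseudocounts of 5 and 0.1, 0.08 and 0.26 with windows of 2000 and 500 bp, and from 0.11 to 0.30 without 1 library, the highest without wild-type replicate 2, centred or not. The 28 members above both wild-type libraries became 11 with centring, 13 with quantile normalization, 14 at a mean of at least 5, from 24 to 39 without 1 library (the share of all promoters then ran from 36.3% to 98.8%, and was 87.5% without wild-type replicate 1), and from 16 to 22 when centred without 1 library. Of the named members, 5 changed sign. Bub1b, Spc24, Incenp and Cdc20 went to -0.56, -0.40, -0.39 and -0.18 with centring and to -0.48, -0.33, -0.41 and -0.03 with quantile normalization. Without ApcMin/+ replicate 1, Ncapd2, Bub1b, Spc24 and Incenp went to -0.14, -0.19, -0.22 and -0.17, and without ApcMin/+ replicate 2 they were 1.93, 0.78, 1.14 and 1.09. Adjusted p-values of the 15 named members were from 0.533 to 1.00 over the 11 alternatives that keep all 4 libraries. The other windows, pseudocounts, scaling to background and choice of transcript start called no promoter.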
